A study of Mus musculus with 9 samples.

Results

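The genes described here are 10 transcription factors of naive pluripotency, *Klf2*, *Klf4*, *Klf5*, *Esrrb*, *Tbx3*, *Zfp42* (Rex1), *Nanog*, *Tfcp2l1*, *Nr0b1* (Dax1) and *Prdm14*, followed through the first days of differentiation. They were chosen by symbol, and all 10 were among the 15074 genes of the RNA-seq table. All 10 also had at least 1 FPKM in some library, the minimum set for the 13288 genes with which they were compared. FPKM is the number of fragments or reads counted on a gene, scaled to the length of its transcript and to the depth of the library, so levels of different genes can be set side by side.

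The study asked what the DNMT1 protein does in mouse embryonic stem cells (ESCs) when its DNA methyltransferase activity is missing. The 3 lines share the J1 background, an ESC line from a male 129 mouse embryo. They were wild type (WT), *Dnmt1*-/- (1KO), and 1KO+1CI, which is the 1KO line with a transgene for DNMT1 carrying the substitution C1229S in its catalytic site. The transgene is driven by the broadly active CAG promoter, and zeocin-resistant colonies were grown as independent clones. The study established more than 1 such clone. The deposited values of this line carry the label CI6 at each day. The sources used here do not explain this label or state which clone the RNA came from. All ESCs were grown on mitomycin C-treated mouse embryonic fibroblasts with serum and LIF, and were taken undifferentiated (day 0) or at day 2 or day 4. For differentiation, feeders were taken out by letting them adhere to gelatin, and the ESCs were cultured without LIF, first as embryoid bodies and then as adherent cells. Each of the 9 conditions had 1 library, so no difference could be set against the spread between cultures, and no test was run. A change is called here when log2(FPKM + 1) differed by at least 1, that is 2-fold on that scale, which understates the changes of genes with low FPKM. Intervals are exact 95% Clopper-Pearson intervals on the reads behind 2 values, and cover counting error only.

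Naive pluripotency is the state of the preimplantation epiblast and of ESCs held by LIF. LIF acts through its receptor and the kinase JAK on STAT3, which drives *Klf4* and *Tfcp2l1*, while *Esrrb* and *Nanog* are held down by the repressor TCF7L1. When the cells leave this state for the formative and primed epiblast, these factors are shut off within days, while *Pou5f1*, which encodes OCT4, stays on.

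RefSeq promoter sequences of GRCm38.p6 were at hand for 7 of the 10 genes, all but *Klf5*, *Tbx3* and *Prdm14*. The 250 bases before the annotated start were read, because DNMT1 copies methylation at CpG dinucleotides and the factors differ in how many of these they carry there. The following lines give 4 of them 5′ to 3′ on the strand of the gene, from CpG-rich to CpG-poor, with every CpG in capitals.
*Klf4*, chr4:55532476-55532725, - strand: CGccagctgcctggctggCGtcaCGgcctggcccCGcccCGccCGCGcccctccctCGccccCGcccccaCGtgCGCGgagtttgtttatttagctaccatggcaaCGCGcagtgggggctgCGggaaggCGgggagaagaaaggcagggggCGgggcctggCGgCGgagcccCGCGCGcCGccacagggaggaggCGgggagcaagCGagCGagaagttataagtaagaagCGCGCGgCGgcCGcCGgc
*Tfcp2l1*, chr1:118627695-118627944, + strand: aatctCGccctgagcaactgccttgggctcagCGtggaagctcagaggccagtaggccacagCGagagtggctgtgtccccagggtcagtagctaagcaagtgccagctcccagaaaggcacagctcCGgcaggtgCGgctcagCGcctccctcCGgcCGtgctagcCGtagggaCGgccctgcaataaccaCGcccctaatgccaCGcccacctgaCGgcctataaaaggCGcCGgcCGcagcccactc
*Zfp42*, chr8:43307010-43307259, - strand: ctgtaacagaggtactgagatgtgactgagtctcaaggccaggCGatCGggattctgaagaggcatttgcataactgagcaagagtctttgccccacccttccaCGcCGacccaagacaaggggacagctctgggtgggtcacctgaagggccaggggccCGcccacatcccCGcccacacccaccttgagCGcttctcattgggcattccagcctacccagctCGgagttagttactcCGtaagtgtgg
*Nanog*, chr6:122707239-122707488, + strand: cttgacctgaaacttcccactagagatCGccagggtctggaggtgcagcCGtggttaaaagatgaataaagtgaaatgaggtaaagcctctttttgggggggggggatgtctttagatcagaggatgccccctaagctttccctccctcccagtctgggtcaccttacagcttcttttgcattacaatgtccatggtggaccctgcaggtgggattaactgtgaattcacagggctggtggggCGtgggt
The *Klf4* window held 32 CpG, more than 95.4% of 32851 mouse promoter windows of this length, whose median was 6. *Klf2* had 29, *Tfcp2l1* 16, *Nr0b1* 11 and *Zfp42* 9 CpG. *Esrrb* had 6 and 3 at its 2 annotated starts, and *Nanog* 3 and 2. The STAT motif TTCNNNGAA, searched on both strands, was present in 1 of these windows, that of the first *Esrrb* start, and in 7.02% of all windows. The ESRRB motif AAGGTCA was in none of them and in 4.08% of all. The KLF box CCNCNCCC was in 6 of the 7 genes, all but *Nr0b1*, and in 45.9% of all windows. No methylation was analysed here, and these letters describe the windows only.

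Depth, read from the FPKM steps of genes with 1 transcript, was between 20100000 and 28000000 counted reads per library. At day 0 *Dnmt1* stood at 74.0 FPKM in WT ESCs, against 13.7 FPKM in the 1KO line and 315 FPKM in the 1KO+1CI line, whose value includes reads of the transgene. *Pou5f1* lay between 632 and 1008 FPKM in all 9 libraries, so this marker of pluripotent cells was present throughout. The 7 listed feeder fibroblast markers (*Lum* is not among the genes of the table) summed at day 0 to 117 FPKM in WT, against 284 in 1KO and 306 in 1KO+1CI, to 17.9, 33.6 and 50.4 at day 2, and to 17.2, 21.4 and 40.1 at day 4. From day 0 to 2, 5 of 7 fell by 2-fold or more in WT cells, against 4.39% of all genes, and 7 of 7 did so in both mutant lines, against 3.76% in each, while none was at 0. The summed feeder marker RNA was thus higher in both mutants than in WT at each day. At day 0 *S100a4* alone had 27.3 FPKM in WT and 110 in each mutant. At day 4, 2 of 7 markers were lower in 1KO than in WT, *Col1a1* (3.76 against 5.07 FPKM) and *Col3a1* (0.784 against 1.55). The part of feeder RNA in the differences between lines and days below was not tested. Neither could a smaller share of cells expressing a factor be told apart from less RNA per cell, since the RNA came from whole cultures.

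In GRCm38 *Klf2* lies at chr8:72319033-72321656, *Klf4* at chr4:55527143-55532466, *Klf5* at chr14:99298691-99315036, *Esrrb* at chr12:86361117-86521628 and *Tbx3* at chr5:119670669-119684724. *Zfp42* lies at chr8:43295063-43306980, *Nanog* at chr6:122707489-122714633, *Tfcp2l1* at chr1:118627945-118685168, *Nr0b1* at chrX:86191764-86195947 and *Prdm14* at chr1:13113457-13127163. 

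At day 0 the 10 factors were all present in the 3 lines. In WT ESCs *Zfp42* was highest at 266 FPKM, followed by *Nanog* at 163 and *Klf2* at 161, and *Prdm14* and *Tbx3* were lowest at 5.60 and 4.27 FPKM. In 1KO ESCs 9 of the 10 were above WT and *Klf2* was below it. The median log2 difference was 0.30, while 48.6% of all genes were above WT and their median was −0.01. Past 2-fold were 3 factors, all higher in 1KO, where 2.54% of all genes were called higher. *Klf4* had 30.3 FPKM in WT against 63.1 in 1KO and 67.1 in 1KO+1CI. *Tbx3*, a T-box factor, had 4.27, 10.2 and 9.15 FPKM in the same order of lines. *Nr0b1*, an orphan nuclear receptor that binds and restrains OCT4, had 33.8, 69.4 and 73.6 FPKM. For these 3 genes the 2 mutant lines lay close to each other and about 2-fold above WT. When libraries were scaled to a common sum, 1 of the 3, *Tbx3*, stayed past 2-fold. In 1KO+1CI against WT, 2 factors were called higher, *Klf4* and *Nr0b1* (background 2.88%), and *Tbx3* lay just under the threshold at 0.95.

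**Figure D1:**
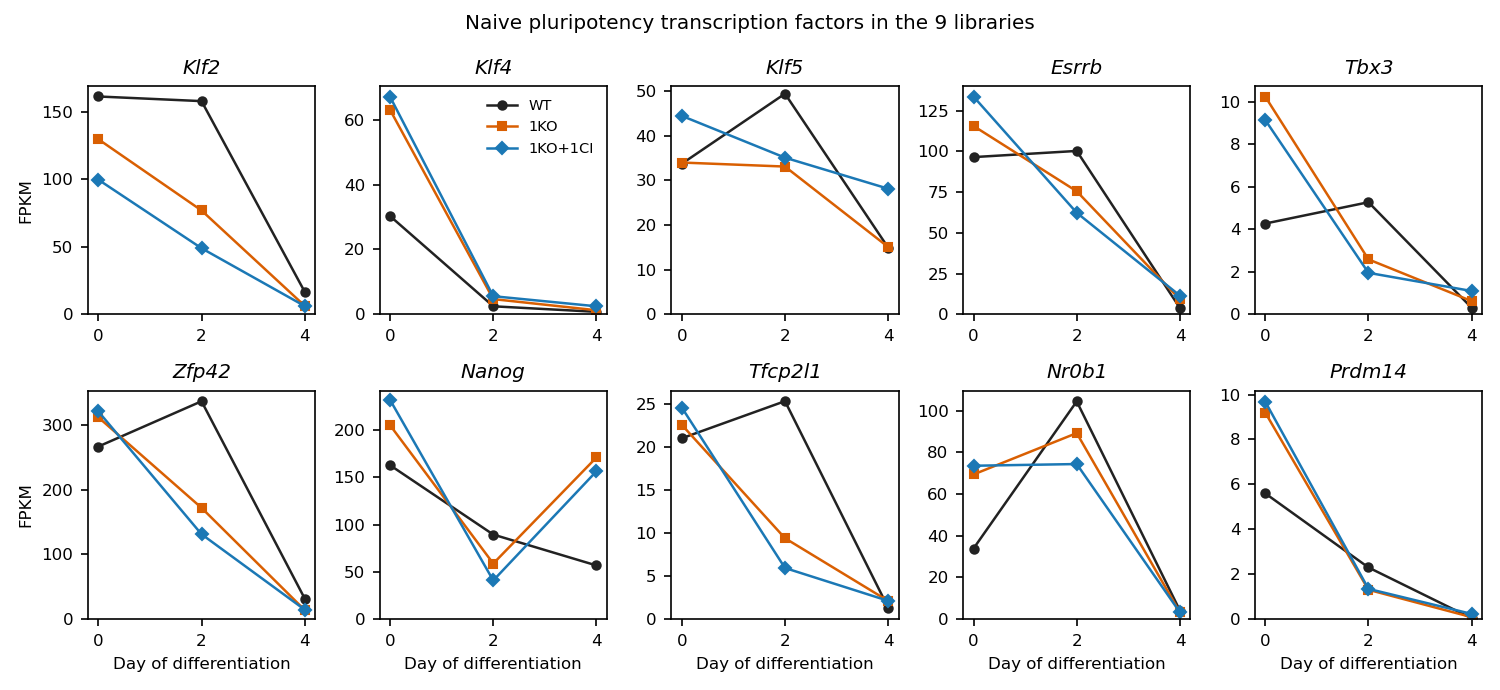
FPKM (y axis, linear from 0, own scale per gene) of each factor against the day of differentiation (x axis), 1 point per library, with WT as black circles, 1KO as orange squares and 1KO+1CI as blue diamonds. In WT, 6 factors stand highest at day 2 and drop by day 4, whereas in both mutant lines every factor but *Nr0b1* is highest at day 0, and *Nanog* forms a V.

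From day 0 to day 2 the naive factors mostly stayed within 2-fold in WT cells and were reduced in both mutant lines. In WT, 2 of the 10 fell (background 4.39%) and 1 rose (background 2.48%), and the median change was 0.15 on the log2 scale, while the mean was −0.20. In 1KO cells 5 fell and none rose, with a median of −1.02 (background 3.76% lower, 1.57% higher). In 1KO+1CI cells 8 fell and none rose, with a median of −1.53 (background 3.76% lower, 2.05% higher). The median change of all genes in the same comparisons lay between −0.01 and 0.05. Of the 10 factors, 5 were more abundant at day 2 than at day 0 in WT and less abundant in 1KO+1CI, namely *Klf5*, *Esrrb*, *Tbx3*, *Zfp42* and *Tfcp2l1*.

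*Tfcp2l1*, a CP2-family factor downstream of STAT3, showed this clearly. It went from 21.0 to 25.3 FPKM in WT, from 22.6 to 9.40 in 1KO and from 24.6 to 5.94 in 1KO+1CI cells. The 3 lines began within 1.17-fold of each other and were widely spread 2 days later. The day 2 to day 0 ratio was 1.21 in WT (1.16 to 1.26), 0.416 in 1KO (0.395 to 0.439) and 0.241 in 1KO+1CI (0.226 to 0.257). *Zfp42*, a zinc finger gene used as a reporter of the naive state, followed the same order. It went from 266 to 336 FPKM in WT, from 312 to 172 in 1KO and from 321 to 131 in 1KO+1CI cells. At day 2 the WT library thus held more *Zfp42* RNA than at any other point, and the mutants about 0.551 and 0.409 of their own day 0 level.

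*Esrrb*, the orphan nuclear receptor that can stand in for NANOG in self-renewal, went from 96.5 to 100 FPKM in WT, from 116 to 75.5 in 1KO and from 134 to 62.3 in 1KO+1CI (days 0 and 2). Its order of lines was therefore reversed between the 2 days. *Tbx3* went from 4.27 to 5.27 FPKM in WT, from 10.2 to 2.58 in 1KO and from 9.15 to 1.95 in 1KO+1CI cells, so the mutants were higher than WT at day 0 and lower at day 2. *Klf2*, the Krüppel-like factor maintained by MEK inhibition, went from 161 to 158 FPKM in WT, from 130 to 76.9 in 1KO and from 99.7 to 48.9 in 1KO+1CI. *Klf2* alone of the 10 was already below WT at day 0 in both mutants. *Klf5* went from 33.7 to 49.5 FPKM in WT, from 34.0 to 33.1 in 1KO and from 44.5 to 35.1 in 1KO+1CI, and was not called in any line in this interval.

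*Nr0b1* was the only factor called higher in this interval, in WT, where it tripled from 33.8 to 104 FPKM (ratio 3.09, 2.90 to 3.29). It stood at 69.4 and 89.2 FPKM in 1KO and at 73.6 and 74.4 in 1KO+1CI cells, so that the WT library went from the lowest of the 3 lines to the highest. *Nanog*, the homeodomain factor, went from 163 to 89.5 FPKM in WT, from 205 to 58.8 in 1KO and from 232 to 40.9 in 1KO+1CI cells. Here all 3 lines were lower at day 2, by least in WT. *Prdm14*, a PR-domain factor that represses *Dnmt3b* and the primed program, went from 5.60 to 2.30 FPKM in WT, from 9.20 to 1.31 in 1KO and from 9.69 to 1.35 in 1KO+1CI. Its WT change lay at the threshold, and under both other scalings of the libraries 1 WT factor was called instead of 2.

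*Klf4* differed from the rest in how alike its fall was in the 3 lines. *Nanog* and *Prdm14* were also lower at day 2 in each line, but by less in WT than in the mutants. *Klf4* went from 30.3 to 2.45 FPKM in WT, from 63.1 to 4.67 in 1KO and from 67.1 to 5.57 in 1KO+1CI. The share left at day 2 was alike, a ratio of 0.0810 in WT (0.0693 to 0.0946), of 0.0741 in 1KO (0.0656 to 0.0832) and of 0.0830 in 1KO+1CI (0.0742 to 0.0923), and these intervals overlapped. The difference between the lines of its log2 change was −0.32 for 1KO minus WT and 0.12 for 1KO+1CI minus 1KO. For 1KO+1CI minus WT it was −0.19 and changed sign with the pseudocount.

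**Figure D2:**
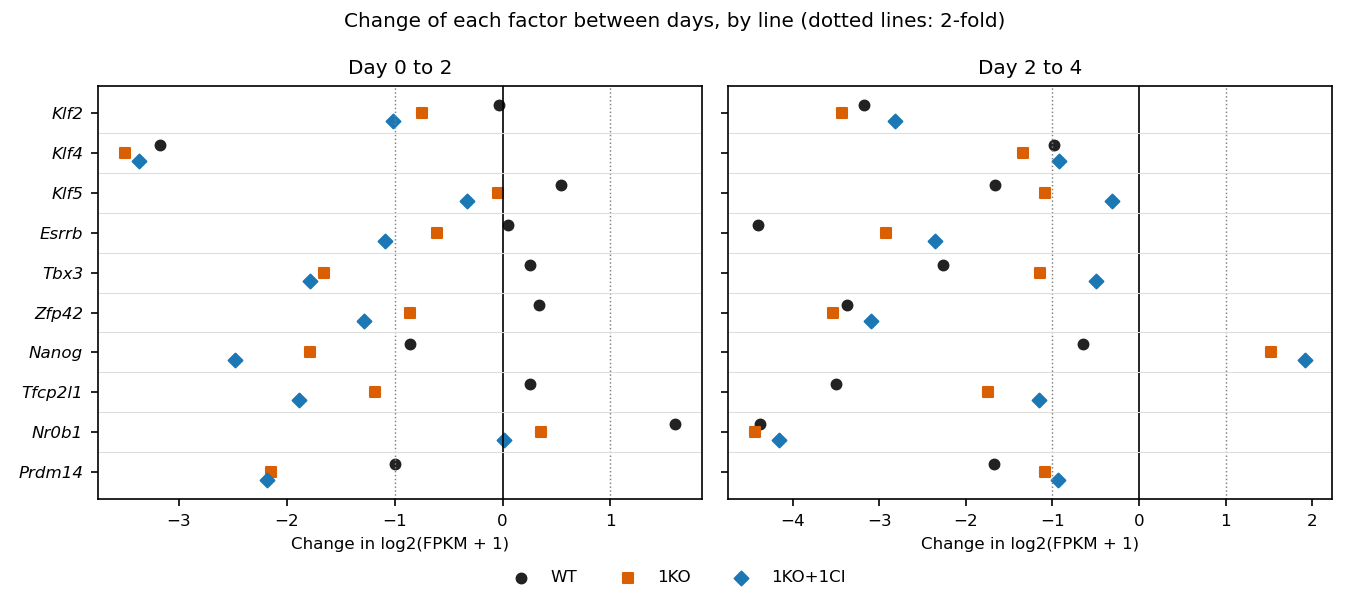
Change in log2(FPKM + 1) (x axis) of each factor (y axis) from day 0 to 2 (left) and from day 2 to 4 (right), 1 symbol per line, with dotted lines at 2-fold. On the left the WT symbol is the rightmost in every row, with *Klf4* far left in all lines; on the right the WT symbol lies left of 1KO+1CI in every row, and the mutants' *Nanog* stands alone above 0.

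The change itself was then compared between lines. From day 0 to 2 the change in 1KO minus that in WT was below 0 for 10 of 10 factors, where 50.2% of all genes were below 0. It ran from −0.32 (*Klf4*) to −1.90 (*Tbx3*) with a median of −1.04, and 5 of 10 were past 2-fold lower, where 2.29% of all genes were. For 1KO+1CI minus WT it was also below 0 for 10 of 10 (background 45.6%), with a median of −1.38 and 7 past 2-fold (background 2.58%), though the sign for *Klf4* depends on the pseudocount. These comparisons share the WT libraries. Between 1KO+1CI and 1KO, 9 of 10 differences were below 0 (background 43.5%) but none reached 2-fold (background 0.346%), and the median was −0.32.

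Measured at day 2 alone, which leaves out the day 0 libraries, 9 of 10 factors were lower in 1KO than in WT, with *Klf4* the exception (background 50.1%). The median was −0.58, and *Klf2* and *Tfcp2l1* passed 2-fold (background 0.753%). *Klf2* had 158 FPKM in WT and 76.9 in 1KO, a ratio of 0.487 (0.466 to 0.508). *Tfcp2l1* had 25.3 and 9.40 FPKM, a ratio of 0.371 (0.352 to 0.391). In 1KO+1CI against WT the median was −0.88, and 5 factors, *Klf2*, *Tbx3*, *Zfp42*, *Nanog* and *Tfcp2l1*, passed 2-fold (background 1.43%). *Klf4* was higher than WT in both mutants at day 2, with 2.45, 4.67 and 5.57 FPKM, and did not reach 2-fold on the log2(FPKM + 1) scale.

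Between 1KO+1CI and 1KO, which differ in the transgene, no factor passed 2-fold at any day. Of all genes, 0.271% were called lower and 0.203% higher at day 0, 0.211% and 0.173% at day 2, and 0.331% and 0.707% at day 4. At day 2 the median was −0.28 and 7 of 10 were lower in 1KO+1CI (background 46.1%). On the log2(FPKM + 1) scale *Klf2* showed the widest gap, 48.9 against 76.9 FPKM (ratio 0.636, 0.600 to 0.674), followed by *Tfcp2l1*, 5.94 against 9.40 (0.632, 0.586 to 0.680), and *Nanog*, 40.9 against 58.8 (0.695, 0.654 to 0.739). These intervals hold no variation between cultures or clones. At day 4 the widest gap was that of *Klf5*, with 28.1 FPKM in 1KO+1CI and 15.1 in 1KO (ratio 1.87, 1.74 to 2.01).

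**Figure D3:**
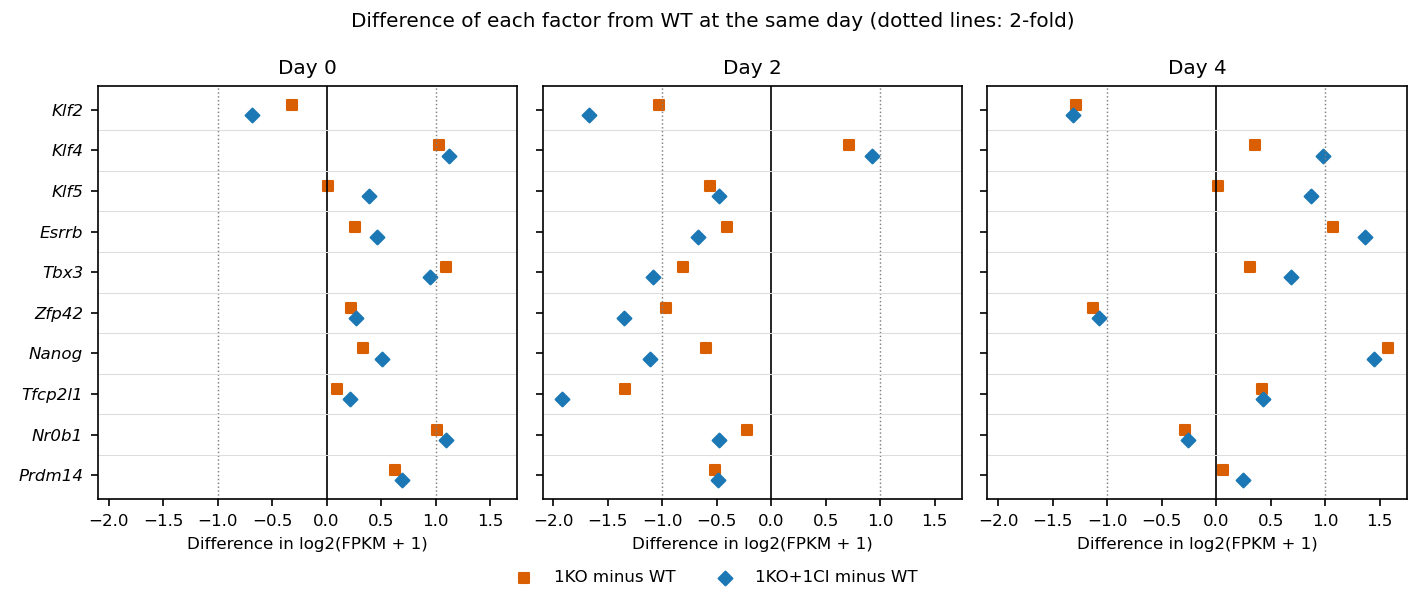
Difference from WT in log2(FPKM + 1) (x axis) of each factor (y axis) in 1KO (orange squares) and 1KO+1CI (blue diamonds) at days 0, 2 and 4, with dotted lines at 2-fold. Most symbols lie right of 0 at day 0, left of 0 at day 2 except *Klf4*, and on both sides at day 4.

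From day 2 to day 4 the WT cells lost most of the factors at once. In WT 8 of 10 fell (background 4.87%), with a median of −2.72 and all 10 below 0 (background 50.0%). *Esrrb* went from 100 to 3.81 FPKM, *Nr0b1* from 104 to 4.07, *Tfcp2l1* from 25.3 to 1.32, *Zfp42* from 336 to 31.6 and *Klf2* from 158 to 16.6. *Klf4*, already low, and *Nanog*, from 89.5 to 56.8 FPKM, were the WT factors that did not reach 2-fold on the log2(FPKM + 1) scale. In FPKM *Klf4* went from 2.45 to 0.749, a ratio of 0.305 (0.219 to 0.425). With a pseudocount of 0.1 or 0.01, or a common sum, it was called and 9 WT factors fell. In 1KO cells 9 fell (background 4.12%), with a median of −1.54, and in 1KO+1CI cells 5 fell (background 3.52%), with a median of −1.04. With a pseudocount of 0.1 or 0.01 these medians were −2.51 and −2.60 in 1KO and −1.79 and −1.97 in 1KO+1CI, and 7 factors fell in 1KO+1CI. The change in 1KO+1CI minus that in WT was above 0 for 10 of 10 factors (background 48.9%), 6 of 10 were above 0 for 1KO minus WT (background 50.4%), and 10 of 10 for 1KO+1CI minus 1KO (background 48.1%). These differences and those from day 0 to 2 use the same day 2 libraries with opposite sign, so they are not separate results. *Nr0b1* fell late and by a like amount in all lines, to 4.07 FPKM in WT, 3.17 in 1KO and 3.23 FPKM in the 1KO+1CI line.

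By day 4 the levels of most factors were low in every line. Against day 0, all 10 had fallen in WT (background 4.91%), 9 in 1KO (background 5.82%), all but *Nanog*, and 8 in 1KO+1CI (background 6.34%), all but *Nanog* and *Klf5*. *Prdm14* was at 0.0370 FPKM (about 2 reads) in WT, 0.0850 FPKM (about 5 reads) in 1KO and 0.230 FPKM (about 12 reads) in 1KO+1CI. *Tbx3* was at 0.303, 0.619 and 1.09 FPKM and *Tfcp2l1* at 1.32, 2.11 and 2.12. *Klf2* and *Zfp42* were lower in 1KO than in WT at day 4 and past 2-fold (background 0.670%). *Klf2* had 16.6 FPKM in WT against 6.20 in 1KO and 6.06 in 1KO+1CI, and *Zfp42* had 31.6, 13.9 and 14.5. *Esrrb* and *Nanog* were higher in 1KO and past 2-fold (background 1.89%). *Esrrb* had 3.81, 9.13 and 11.4 FPKM, a ratio of 2.40 (2.11 to 2.73) for 1KO to WT. The same 4 factors were past 2-fold in 1KO+1CI against WT, in the same directions (background 1.16% lower, 3.42% higher). *Klf4*, with 0.749, 1.23 and 2.46 FPKM, and *Tbx3* were not called in 1KO+1CI on the log2(FPKM + 1) scale. Their FPKM ratios to WT there were 3.28 (2.34 to 4.61) and 3.62 (2.37 to 5.50). *Klf5*, which acts in the trophectoderm and later epithelia as well as in ESCs, kept the largest share of day 0 of the 3 Krüppel-like factors, with 14.9 FPKM in WT and 15.1 in 1KO, and 28.1 in 1KO+1CI.

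*Nanog* was the exception to the fall. After day 2 it went from 58.8 to 171 FPKM in 1KO and from 40.9 to 157 in 1KO+1CI cells, and from 89.5 to 56.8 in WT. Both mutants fell below WT at day 2 and were about 3-fold above it at day 4. The day 4 to day 2 ratio was 0.634 in WT (0.604 to 0.667), 2.91 in 1KO (2.78 to 3.05) and 3.83 in 1KO+1CI (3.63 to 4.04). At day 4 *Nanog* thus stood at 34.8% of its day 0 level in WT but at 83.4% in 1KO and 67.4% in 1KO+1CI. No other factor of the 10 was called higher from day 2 to 4 in any line, where 4.34% (WT), 4.42% (1KO) and 4.11% (1KO+1CI) of all genes were.
Markers of other cells were set beside it. *T* (brachyury), a primitive streak gene named here after its values were seen, had 2.07 FPKM at day 4 in WT against 29.2 in 1KO and 27.2 in 1KO+1CI. *Eomes*, a T-box gene of trophoblast and primitive streak, had 8.51 FPKM at day 4 in WT, against 29.9 in 1KO and 38.5 in 1KO+1CI. The 5 trophoblast markers in the table summed to 145, 228 and 366 FPKM at day 4. Such sums, lines in the same order, were already 260, 222 and 108 FPKM at day 0, and 137, 103 and 90.9 at day 2. Between days 0 and 4 the sum thus fell for WT, was much the same for 1KO and rose for 1KO+1CI. Most of each day 4 sum came from the epithelial keratin genes *Krt8* (65.3, 90.8 and 177 FPKM) and *Krt18* (69.9, 103 and 145 FPKM). Of the others, *Gata3* stayed under 1 FPKM in every library, *Tfap2c* went from 5.28 to 3.79 FPKM in 1KO and from 7.32 to 4.37 in 1KO+1CI between days 2 and 4, and *Cdx2* and *Elf5*, which define trophoblast, are not among the genes of the table. The 7 primitive endoderm markers summed to 6.48, 9.97 and 14.7 FPKM at day 0 and to 6.75, 13.6 and 20.9 at day 4. Of the day 4 sums, *Dab2* alone gave 3.73, 8.18 and 11.6 FPKM. Among the 6 with at least 1 FPKM in some library, 5 were higher in 1KO than in WT at day 4. *Gata4* was lower, with 0.96 FPKM in 1KO against 1.56 in WT. The 6 germ cell markers summed to 22.7, 26.1 and 25.2 FPKM at day 4, lower than at day 2 in each line (29.6, 48.7 and 51.1 FPKM). The part of other cells in the *Nanog* values was not tested. *Nanog* has the processed pseudogenes Nanog-ps1 on chromosome X and Nanog-ps2 on chromosome 12, and *Zfp42* has Zfp42-ps1 on chromosome 15, so shared reads leave both levels uncertain. The counting of *Tbx3* may hold reads of *Tbx3os1*, an antisense gene that overlaps its exons, as no source used here gives the strand setting.

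The 9 listed genes of the LIF and STAT3 pathway moved apart from most of the factors. From day 0 to 2, 2 of 9 fell in WT (background 4.39%), 2 in 1KO (background 3.76%) and 4 in the 1KO+1CI line (background 3.76%), with medians of −0.71, −0.57 and −0.75. None rose, where 1.57% to 2.48% of all genes did. *Socs3*, the feedback inhibitor induced by STAT3, went from 24.4 to 2.17 FPKM in WT, from 19.9 to 2.01 in 1KO and from 22.8 to 2.99 in 1KO+1CI. *Stat3* went from 21.2 to 6.60, from 24.97 to 9.95 and from 30.5 to 12.2 FPKM. As for *Klf4*, both genes were called lower in all 3 lines. On the log2(FPKM + 1) scale *Socs3* changed by −3.00, −2.80 and −2.58 and *Stat3* by −1.55, −1.25 and −1.26, the largest falls being in WT. No counting interval is given for these genes. *Tfcp2l1*, also named above as driven by STAT3, did otherwise: it rose for WT cells and fell for both mutants. Its day 2 to day 0 ratios, with the same order of lines, were 1.21, 0.416 and 0.241. The part of STAT3 in these changes was not tested. Over the pathway the change in 1KO minus that in WT had a median of 0.02, with 3 of 9 below 0. *Lifr*, the LIF receptor subunit, was not called from day 0 to 2 and fell from day 2 to 4 in each line, by 1.42 on the log2 scale in WT, by 1.06 in 1KO and by 1.15 in 1KO+1CI.

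**Figure D4:**
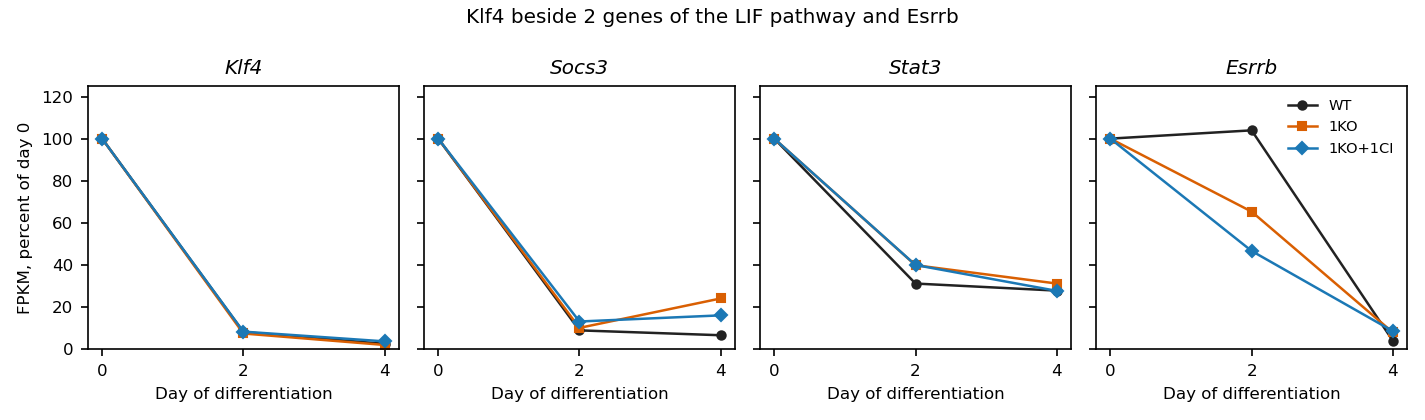
FPKM as percent of the day 0 library of the same line (y axis, linear from 0) against the day (x axis). Each library gives 1 point, and the genes are *Klf4*, *Socs3*, *Stat3* and *Esrrb*. *Tfcp2l1*, also driven by STAT3, is not drawn. At day 2 *Klf4* is at 7.41% to 8.30% in all 3 lines, whereas *Esrrb* is at 104% in WT against 65.3% in 1KO and 46.6% in 1KO+1CI.

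Of 10 other genes of the naive state, which include the growth factor gene *Fgf4* and the nuclear receptor gene *Nr5a2*, none fell from day 0 to 2 in WT (background 4.39%), 1 did in 1KO (background 3.76%) and 3 did in 1KO+1CI (background 3.76%). With 10 genes, the first 2 of these counts are near the background. The change in 1KO minus that in WT was below 0 for 10 of 10 (background 50.2%), as for the factors, with a median of −0.55. None was past 2-fold, which with 10 genes is near the background of 2.29% lower. From day 2 to 4, 9 of the 10 fell in each line. At day 4 all 10 were lower in 1KO than in WT (background 49.6%), 4 of them past 2-fold (background 0.670%). Of the 10 factors 7 were higher, which is near the background of 50.3%. Past 2-fold were 2 factors in each direction (background 0.670% lower, 1.89% higher). Of the 7, *Klf5* (ratio 1.01, 0.927 to 1.10) and *Prdm14* (about 5 against 2 reads) lay within counting error. *Fgf4*, whose log2(FPKM + 1) difference between 1KO and WT was the lowest of this list, had 21.4 FPKM in WT against 6.11 in 1KO and 5.14 in 1KO+1CI. *Gbx2*, a homeobox gene of the naive state, went from 9.16 to 21.4 FPKM in WT from day 0 to 2. It was the member of this list called higher (background 2.48%).

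Formative epiblast genes ran the other way at day 2. All 8 listed were then higher in 1KO than in WT, as were 6625 of 13288 genes, and 4 were past 2-fold (background 1.81%). Their median was 1.22. The largest difference was that of *Lef1*, 2.37 at day 2 and already 2.00 at day 0. At day 0, 5 of 8 were lower in 1KO, as were 6826 of 13288 genes, with a median of −0.25. At day 4, 5 of 8 were again lower (background 49.6%), with a median of −0.12. *Pou3f1*, the POU factor OCT6, reached 21.7 FPKM in WT against 67.5 in 1KO and 78.2 in 1KO+1CI. Among 13 factors known to act in the exit from the naive state, none differed by 2-fold between 1KO and WT at day 2, which is near the background of 0.753% lower and 1.81% higher, and their median was −0.09. *Foxd3*, a forkhead repressor, was the one past 2-fold between 1KO and WT at day 0 (background 2.54% higher). It had 4.56 FPKM in WT against 19.0 in 1KO and 18.4 in 1KO+1CI. The 3 core factors *Pou5f1*, *Sox2* and *Sall4* were not called between any 2 lines at the same day. With 3 genes this is near the background, which lay between 0.173% and 3.42% in either direction. Close relatives of the factors (13 of 15 in the table, without *Tbx2* and *Nr0b2*) gave no gene past 2-fold between 1KO and WT at any day. This is near the background, which was 1.76% lower and 2.54% higher at day 0, 0.753% and 1.81% at day 2, and 0.670% and 1.89% at day 4.

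Across the 9 libraries, the level of each factor was compared with the mean of the other 9 after z-scoring log2(FPKM + 1). Pearson's r was 0.98 for *Tfcp2l1*, 0.97 for *Tbx3*, 0.95 for both *Esrrb* and *Prdm14*, 0.92 for *Zfp42*, 0.88 for *Klf2*, and 0.82 for *Klf4*, *Klf5* and *Nr0b1*. It was 0.25 for *Nanog*. The libraries share lines and days, so r is a description of the pattern. Among 9719 other genes with at least 5 FPKM in some library, the 5 most like the mean of the factors were *Cobl*, *4930461G14Rik*, *Mreg*, *Rfx2* and *Cpt1a*, with r between 0.98 and 0.99. *Cobl*, an actin nucleator gene, had 14.1, 14.2 and 2.50 FPKM in WT, 15.0, 8.89 and 1.97 in 1KO, and 20.7, 6.01 and 2.76 in 1KO+1CI at days 0, 2 and 4. *Mreg*, which encodes melanoregulin, had 44.9, 39.5 and 6.47 FPKM in WT, 64.6, 23.2 and 4.70 in 1KO, and 66.1, 20.7 and 4.80 in 1KO+1CI.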

How the data were processed

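RNA-seq of poly(A)-selected RNA gave 9 libraries, 1 for each line and day. The deposited values are FPKM, which the authors made with HOMER (analyzeRepeats.pl) from reads trimmed by Trim Galore and aligned by HISAT2 to mm10. SAMtools is also named in the submitters' processing notes. Versions, annotation and strand setting were not given in the sources used here. A second deposited table, of repeat copies, was not used.

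Of 15095 entries, 21 without a gene symbol (a 0 or a date) were left out. Differences were taken on log2(FPKM + 1), and shares of all genes over the 13288 genes with at least 1 FPKM in some library. Depth was found for each library as the number of reads at which FPKM times transcript length gave whole reads. Of low genes with 1 transcript, 64.1% to 68.6% then lay within 0.15 of a whole read, where an even spread gives 30%. Read numbers are therefore approximate, and those of *Esrrb*, *Tbx3* and *Nanog*, which have several transcripts, use a mean length. If both mates of a pair were counted, the intervals are too narrow.

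The factors and the other lists were chosen with earlier results of these data known. All 10 factors are named. Of other lists, the highest or lowest of a comparison and genes the text needs are named, the latter and the list members given as examples after their values were seen. Positions are from GENCODE M21 (GRCm38). Python 3.11.15, numpy 2.4.6, pandas 2.3.3, scipy 1.17.1 and matplotlib 3.10.9 were used, and the computation was tested on simulated data. Alternatives were pseudocounts of 0.1 and 0.01, a common sum (TPM), median-ratio scaling, no minimum FPKM, leaving out *Nanog*, and the mean for the median.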

Additional observations from a re-analysis of the deposited data

Results flagged for a closer look

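For 6 results WT moved one way and both mutant lines the other. Each rests on 1 library per condition, and the difference was not tested. From day 0 to 2, the change in 1KO minus that in WT, in log2 units, was −0.58 for *Klf5*, −0.66 for *Esrrb*, −1.90 for *Tbx3*, −1.19 for *Zfp42* and −1.44 for *Tfcp2l1*, all of which were higher at day 2 than at day 0 in WT and lower in both mutants. The WT change of *Esrrb* was only 0.06, and the 1KO change of *Klf5*, −0.04, changed sign under another scaling. From day 2 to 4 the difference was 2.17 for *Nanog*, lower at day 4 than at day 2 in WT and higher in both mutants.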

How the results depend on the processing

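Of 240 differences of single factors, 6 changed sign under some pseudocount or scaling, the largest of them 0.19 in size as reported. Medians over the factors, in log2 units, changed by more than their counting error as follows. From day 0 to 2, WT went from 0.15 to 0.25 without *Nanog* and to −0.20 as a mean, which reverses its sign. For 1KO, −1.02 became −0.91 with a common sum, −0.86 without *Nanog* and −1.22 as a mean. For 1KO+1CI, −1.53 became −1.66 and −1.67 with pseudocounts of 0.1 and 0.01, and −1.28 without *Nanog*. From day 2 to 4, the same pseudocounts gave −3.57 and −3.74 in WT, −2.51 and −2.60 in 1KO, and −1.79 and −1.97 in 1KO+1CI. Leaving out *Nanog* gave −3.17 in WT and −1.74 in 1KO, and means were −1.92 in 1KO and −1.43 in 1KO+1CI. At day 2, 1KO minus WT was −0.69 and −0.71 with the pseudocounts, and 1KO+1CI minus WT was −0.68 without *Nanog*. For the change from day 0 to 2, 1KO minus WT was −1.15 without *Nanog*, and 1KO+1CI minus WT was −1.56 and −1.58 with the pseudocounts and −1.19 without *Nanog*. Among counts past 2-fold, WT from day 0 to 2 had 1 factor lower instead of 2 with a common sum or median ratios, and 1KO minus WT at day 0 had 1 higher instead of 3 with a common sum. From day 2 to 4, 1KO+1CI had 7 lower instead of 5 with either pseudocount. At day 4, 1KO minus WT had 4 higher instead of 2 with a pseudocount of 0.01, and 1KO+1CI minus WT had 5 higher with either pseudocount and 1 lower instead of 2 with a common sum. Without *Nanog*, both mutants had 0 higher from day 2 to 4 and 1 higher than WT at day 4. The cause of these shifts was not tested beyond the settings themselves. A common sum moved the median of all genes by up to −0.13 (WT, day 2 to 4). No paired analysis was possible because no condition has a second library and the labels give no replicate numbers that could pair libraries. A fit of line plus day over all 9 libraries could be made and was not run. Depth limits *Prdm14* at day 4, with about 2 to 12 reads.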
